A study of Mus musculus with 4 samples.

Results

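Hepcidin, iron carriers and heme enzymes were followed in mouse liver between fasting and refeeding. The 10 genes used were chosen for their roles in hepatic iron and heme handling, with earlier results of these data known. The genes were Hamp, Hamp2, Bmp6, Tfr2, Tfrc, Trf, Slc40a1, Alas1, Fech and Hmox1, and every array probe carrying one of these names was taken. For 9 of the 10 the array's gene name was the current symbol, and Tfr2, listed under the older name Trfr2, was found through its RefSeq accession. The 10 genes had 15 probes, of which 14 gave signals well above background, out of 19719 kept probes for 15557 named genes.

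The livers came from male mice of the inbred strain C57BL/6J (C57/Bl6 in the labels), 8 to 12 weeks old, with no genetic change named in the labels. Fasted mice had no food for 24 h, and refed mice had no food for 24 h followed by 2 h with food, so both groups had fasted and no mouse fed without a fast was included. RNA of 4 fasted and 4 refed livers was compared on 4 two-colour arrays, each holding 1 liver of either group, and the array was the replicate (n = 4). The fasted liver carried the red dye Cy5 on replicates 1 and 2 and the green dye Cy3 on replicates 3 and 4, and all ratios below were turned to fasted over refed.

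Hepcidin is a peptide hormone that hepatocytes release into the blood, where it removes the iron exporter ferroportin from cell surfaces and so lowers the iron reaching plasma. Its transcription is driven by BMP ligands from liver endothelial cells acting through SMAD factors, and by interleukin 6 acting through STAT3. The liver is also a large maker of heme, most of it for cytochrome P450 enzymes, and the first enzyme of that pathway, made from Alas1, sets its pace.

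The genes chosen to check the direction of the labels were higher in the fasted livers on all 4 arrays. The log2 ratio was 2.66 for the gluconeogenic enzyme gene Pck1, 1.20 for the coactivator gene Ppargc1a and 5.55 for Igfbp1, a secreted binding protein induced by fasting (adjusted p from limma of 0.00621, 0.00338 and 0.00372). All 8 hepatocyte markers were kept, and their summed normalized intensity ranged from 596484 to 739853 in fasted and from 512864 to 662656 in refed livers; Tat alone among them was called higher, at 0.84, with a dye effect (adjusted p of 0.0472). The list mean was 0.42 and 0.58 where the fasted liver was Cy5 and 0.02 and -0.01 where it was Cy3. None of the 6 kept stellate cell markers or the 9 liver endothelial markers was called. The ratios of arrays with the same dye orientation correlated across probes at 0.66 and 0.75, and those of opposite orientation at 0.22 to 0.40. Some features of single arrays touch results below. Blood and Kupffer cell markers were higher in the fasted liver on replicates 1 and 3, and the refed liver of replicate 3 carried RNA of pancreatic acinar genes (4 of 16 kept), whose list mean was -4.30 there and between -0.07 and 0.02 on the other arrays. In these bulk livers, fewer cells of a type and less RNA per cell cannot be told apart.

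The hormone genes Hamp and Hamp2 lie side by side on chromosome 7 and have similar sequences, so the probes that read them are shown first, with the bases that differ between them in capitals.
Hamp: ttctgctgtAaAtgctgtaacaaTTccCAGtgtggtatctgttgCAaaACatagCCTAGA
Hamp2: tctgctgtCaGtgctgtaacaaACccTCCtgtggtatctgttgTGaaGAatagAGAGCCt
The files placed these probes on the minus strand at chr7:31727490-31727549 and chr7:31707520-31707579 of build mm9. Of the 59 bases that align, 42 were identical (71.2%) and 17 differed. Whether either probe also captures the other transcript was not tested, and both values are uncertain to that extent.

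The DNA upstream of the transcription starts was alike as well, with 227 of 247 aligned bases identical (91.9%). The stretches below, from RefSeq on build GRCm38.p6, are shown because they hold the sequences through which BMP and STAT3 signals are known to act on hepcidin. They lie on the minus strand at chr7:30944078-30944168 for Hamp and chr7:30924227-30924317 for Hamp2, with capitals on the BMP response core, or the bases aligned with it, and then on the STAT site.
Hamp: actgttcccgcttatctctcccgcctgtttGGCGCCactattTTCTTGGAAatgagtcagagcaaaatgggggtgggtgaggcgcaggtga
Hamp2: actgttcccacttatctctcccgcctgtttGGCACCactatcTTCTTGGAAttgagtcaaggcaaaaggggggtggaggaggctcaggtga
The BMP response core, GGCGCC, lay 109 bases before the start of Hamp, and Hamp2 carried the change G4A there, counted from 1 at the first base of the core. On either strand, GGCGCC occurred in 9.59% of 32851 upstream stretches of 250 bases and the STAT site TTCTTGGAA in 0.365%. A match is a description of the letters and not of binding.

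The hepcidin gene Hamp gave a higher mean ratio in fasted than in refed livers, by an amount that did not pass the test. Its normalized intensity was 27733, 24629, 23979 and 24945 in the fasted livers of replicates 1 to 4. In the refed livers it was 21565, 23402, 17401 and 24409. The fasted value was the higher one on every array, but the groups overlapped, since the refed liver of replicate 4 exceeded the fasted liver of replicate 3. The log2 ratios were 0.36, 0.07, 0.46 and 0.03 (mean 0.23 ± 0.21, SD, n = 4), with a 95% interval from -0.01 to 0.47 and an adjusted p of 0.244 in limma.

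The ratio of Hamp was larger on replicates 1 and 3 than on replicates 2 and 4. On the same 2 arrays the list mean of the blood markers, 5 of 8 kept, was 1.08 and 1.44, against -0.19 and 0.27 on replicates 2 and 4. The hemoglobin gene Hbb-b1 reached a log2 ratio of 2.35 and 2.37 on replicates 1 and 3, with -0.27 and 0.23 on the others. Hba-a1 was at 2.45, -0.26, 2.48 and 0.34 on replicates 1 to 4, and Alas2 at 0.39, -0.28, 1.12 and 0.03. Slc4a1 was at 0.17, -0.25, 0.98 and 0.25, and Klf1, at 0.04, 0.12, 0.22 and 0.50, was highest on replicate 4. The Kupffer cell list, 7 of 9 kept, was at 0.49 and 0.51 on replicates 1 and 3, against -0.25 and -0.18 on replicates 2 and 4. The summed intensity of the blood list ranged from 25873 to 121632 in fasted and from 15416 to 34995 in refed livers, and that of the Kupffer list from 13482 to 18697 and from 8934 to 16044. Over replicates 2 and 4 alone, chosen after seeing the data, the log2 ratio of Hamp was 0.05. These 2 arrays hold its lowest ratios, so a smaller mean followed from the choice. With median centring over all 4 arrays the ratio of Hamp was 0.076. The part of blood or Kupffer cell content in the Hamp values was not tested.

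**Figure D1:**
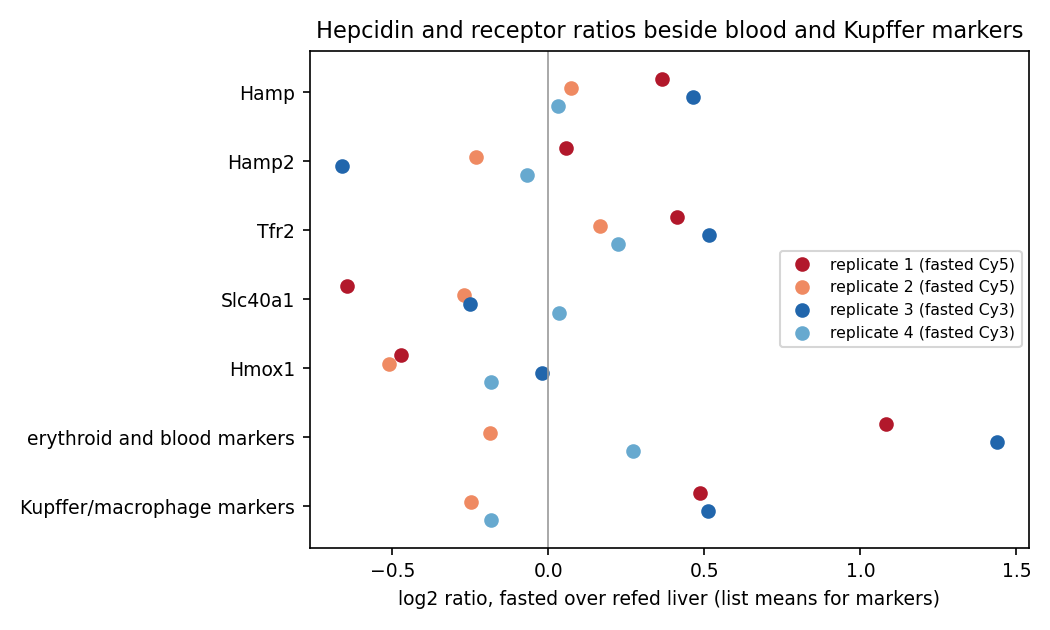
Log2 ratio of fasted over refed liver (horizontal axis) for 5 genes and for the mean of the blood and Kupffer cell marker lists, with 1 point per array coloured by replicate. Hamp and Tfr2 have their highest ratios on replicates 1 and 3, where the blood list is at 1.08 and 1.44.

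The paralog Hamp2, whose peptide is not known to act on iron, differed more between arrays than between fasted and refed livers. Its normalized intensity was 953, 1143, 2672 and 1179 in fasted livers and 917, 1343, 4222 and 1238 in refed livers. Both livers of replicate 3 were thus above all 6 others, and the groups overlapped. The log2 ratios of 0.06, -0.23, -0.66 and -0.07 averaged -0.23 ± 0.31 (SD, n = 4; limma adjusted p of 0.373). The lowest ratio came from replicate 3, whose refed liver held the acinar signal, and without that array the mean was -0.08.

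Bmp6, the ligand that reports liver iron stores to hepcidin, was dim. Its intensity was 166, 143, 111 and 111 in fasted and 112, 99.8, 117 and 104 in refed livers, and the groups overlapped. The ratio differed between the dye orientations, at 0.57 and 0.52 where the fasted liver was Cy5 and -0.08 and 0.10 where it was Cy3. The mean was 0.28 ± 0.32 (SD, n = 4; limma adjusted p of 0.279), and the dye term was 0.27 with an adjusted p of 0.0612. The mean was 0.55 with plain subtraction, 0.67 with Agilent's processed signals and 0.18 without replicate 1, none of them called. Liver endothelial cells are the known source of Bmp6, and the list mean of their markers was 0.20, 0.19, 0.03 and 0.22 on replicates 1 to 4; its part in the Bmp6 values was not tested.

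Tfr2 encodes transferrin receptor 2, a sensor of iron-loaded transferrin on hepatocytes that acts upstream of hepcidin. Its intensity was 26190, 25946, 26371 and 26366 in the fasted livers, a narrow range, and 19688, 23130, 18476 and 22584 in the refed livers. The groups did not overlap, as held for 13.6% of all kept probes in either direction and for 3 of the 10 genes by their brightest probe (Tfr2, Trf and Alas1). The log2 ratios of 0.41, 0.17, 0.51 and 0.22 averaged 0.33 ± 0.16 (SD, n = 4), a 1.26-fold higher level in fasted livers, with a 95% interval from 0.12 to 0.54. The adjusted p of 0.0838 in limma passed the limit of 0.10, but the change was under the required 1.5-fold. The adjusted p was above the limit without any one of the arrays (0.141 to 0.301), with plain subtraction (0.194) and with median centring, where the log2 ratio was 0.17. As with Hamp, the larger ratios were those of replicates 1 and 3. Over replicates 2 and 4 alone, chosen after seeing the data, the log2 ratio was 0.19. These 2 arrays hold the lowest ratios of Tfr2, so a smaller mean followed from the choice.

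Tfrc encodes transferrin receptor 1, which takes up iron-loaded transferrin and whose mRNA is stabilised when cellular iron is low. Its brightest probe, printed in 10 spots per array, gave 163, 247, 198 and 169 in fasted and 291, 254, 240 and 335 in refed livers. All 4 ratios were below 0, at -0.84, -0.04, -0.27 and -0.99, while the groups overlapped by the fasted liver of replicate 2. The mean was -0.53 ± 0.45 (SD, n = 4; limma adjusted p of 0.131). A second probe gave -0.42, -0.09, -0.25 and -0.40 (mean -0.29 ± 0.15), and its groups did not overlap (140.9 to 162.6 fasted, 173.6 to 214.1 refed), with an adjusted p of 0.108. With normexp fitted to all spots the means were -0.24 and -0.14, and with Agilent's processed signals the second probe was at -0.57 (adjusted p of 0.0819), still under 1.5-fold. The order of the arrays was similar for the probes except that replicates 1 and 4 traded places. The remaining probe, which spans 217 bases of the genome, was not well above background in any liver and was not tested.

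Trf, which encodes the plasma iron carrier transferrin, had lower values in fasted livers by its brightest probe. The intensities were 73431, 73854, 80352 and 82580 in fasted and 86461, 91941, 88755 and 90928 in refed livers, with no overlap. The ratios of -0.24, -0.32, -0.14 and -0.14 had the smallest spread of any kept probe among the 10 genes (mean -0.21 ± 0.08, SD, n = 4; limma adjusted p of 0.162). A second Trf probe averaged -0.10 ± 0.15, with replicate 1 above 0, and its groups overlapped (adjusted p of 0.586).

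Slc40a1 encodes ferroportin, the iron exporter that hepcidin removes. Its intensity was 2535, 3122, 3232 and 3286 in fasted and 3961, 3762, 3846 and 3212 in refed livers. Replicates 1 to 3 were lower in the fasted liver and replicate 4 was not, so the groups overlapped. The ratios of -0.64, -0.27, -0.25 and 0.03 averaged -0.28 ± 0.28 (SD, n = 4; limma adjusted p of 0.228), and without replicate 1 the mean was -0.16. Slc40a1 is also made by Kupffer cells, whose list mean was 0.49, -0.25, 0.51 and -0.18 on replicates 1 to 4, and their part in the Slc40a1 values was not tested.

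Of the 10 genes, Alas1 alone was called, which required 1.5-fold or more together with an adjusted p below 0.10. Alas1 encodes 5-aminolevulinate synthase 1, the rate-limiting first enzyme of heme synthesis outside red cell precursors, and its mRNA is known to be lowered by heme. It fell in fasted relative to refed livers, or equally was higher after 2 h of food. None of the 10 was called higher and 1 was called lower, against 1.70% (335) and 2.07% (409) of the 19719 probes, a split that moved to 230 and 635 with median centring in place of loess. An unadjusted p under 0.05 in limma was found for 6 of the 10, against 21.6% of all kept probes and 3463 of 15557 named genes by brightest probe. The 10 genes were chosen with earlier results of these data known, so this count is no evidence about them as a group. Their median log2 ratio was -0.22, beside 0.01 over all named genes, and their median absolute log2 ratio was 0.28, beside 0.11.

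The brightest Alas1 probe (chr9:106136284-106136343, minus strand, mm9) gave 18488, 32945, 18877 and 18533 in the fasted livers. In the refed livers it gave 35650, 74487, 67119 and 58751. Every refed liver was above every fasted one, although the lowest refed value (replicate 1) was close to the highest fasted value (replicate 2). The log2 ratios of -0.95, -1.18, -1.83 and -1.66 averaged -1.4 ± 0.41 (SD, n = 4), a 2.65-fold higher level in refed livers, with a 95% interval from -1.78 to -1.03 and an adjusted p of 0.0106 in limma. By size this was fall 56 among the kept probes.

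A second Alas1 probe (chr9:106135796-106135855) read the same direction at a smaller size. Its intensity ran from 928 to 1386 in fasted and from 1731 to 2714 in refed livers, without overlap. The ratios of -0.69, -0.97, -1.17 and -0.90 averaged -0.93 ± 0.20 (SD, n = 4), a 1.91-fold difference with an adjusted p of 0.00793. The probes kept the same lowest and highest arrays, replicates 3 and 1.

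The ratio of the brightest Alas1 probe differed between the dye orientations in size and not in direction. Where the fasted liver was Cy5 the mean was -1.06, and where it was Cy3 it was -1.75, with a dye term of 0.34 and an adjusted p of 0.0508. The second probe gave -0.83 and -1.03, with a dye term adjusted p of 0.443. Each orientation held different livers. Here and for the other genes, an effect of dye and a difference between livers cannot be told apart. Over replicates 2 and 4, a choice of arrays made after seeing the data, the log2 ratios were -1.42 and -0.93 for the 2 probes, and both were called. The part of blood or Kupffer cell content in the Alas1 values was not tested further.

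The DNA shown next is a stretch of 30 bases on the minus strand at chr9:106247906-106247935 (GRCm38.p6), 205 to 176 bases before one of the RefSeq starts of Alas1. It is shown because Alas1 is a textbook target of the factor NRF1, whose core GCATGCGC is found here on both strands as overlapping copies, in capitals.
Alas1: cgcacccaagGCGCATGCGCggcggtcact
The stretch upstream of the other Alas1 start searched held no copy of the core. The core occurred in 2.26% of the 32851 upstream stretches. The cAMP response element TGACGTCA, the site of CREB, was in 1.55% of them. It was in none of the 10 stretches searched for 6 of the genes (Hamp, Hamp2, Bmp6, Tfr2, Tfrc and Alas1), and the search left Fech out. Its half-site TGACG, which any full element also holds, was in 17.8% of all stretches and upstream of 1 start each of Alas1, Tfr2 and Tfrc. No match says only that these letters are not in this window.

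**Figure D2:**
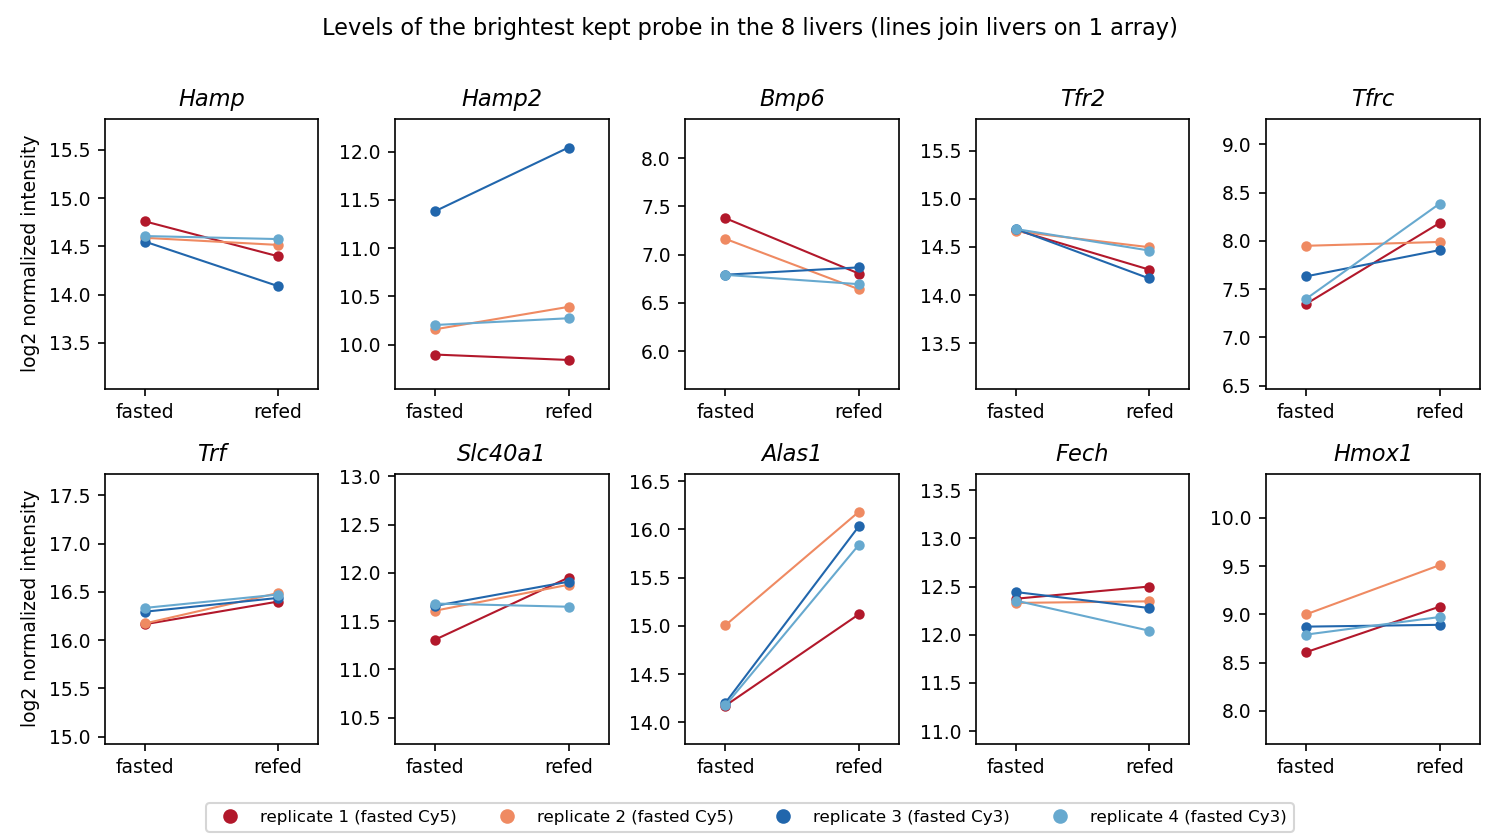
Log2 normalized intensity (vertical axis, each panel spanning the same number of log2 units) of the brightest kept probe of the 10 genes in the 8 livers, with lines joining the fasted and refed liver of an array. Alas1 rises from fasted to refed on all 4 arrays, and Hamp2 is highest in both livers of replicate 3.

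Fech, the ferrochelatase that inserts iron in the last step of heme synthesis, gave intensities of 5306, 5148, 5566 and 5234 in fasted and 5791, 5207, 4963 and 4215 in refed livers. The groups overlapped, and the ratio was below 0 on replicates 1 and 2 and above 0 on replicates 3 and 4, a split along the dye orientation (dye term adjusted p of 0.175). The mean log2 ratio was 0.08 ± 0.19 (SD, n = 4; 95% interval from -0.14 to 0.31, limma adjusted p of 0.683), and with median centring it was -0.064.

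Hmox1 encodes heme oxygenase 1, the inducible enzyme that opens the heme ring and frees its iron. Its brightest probe gave 390, 512, 469 and 443 in fasted and 541, 729, 475 and 502 in refed livers, so that each refed liver exceeded its partner on the array while the groups overlapped. The ratios of -0.47, -0.51, -0.02 and -0.18 averaged -0.30 ± 0.24 (SD, n = 4; limma adjusted p of 0.168). The second Hmox1 probe averaged -0.04 ± 0.11, with 2 arrays on either side of 0 and an adjusted p of 0.817.

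**Figure D3:**
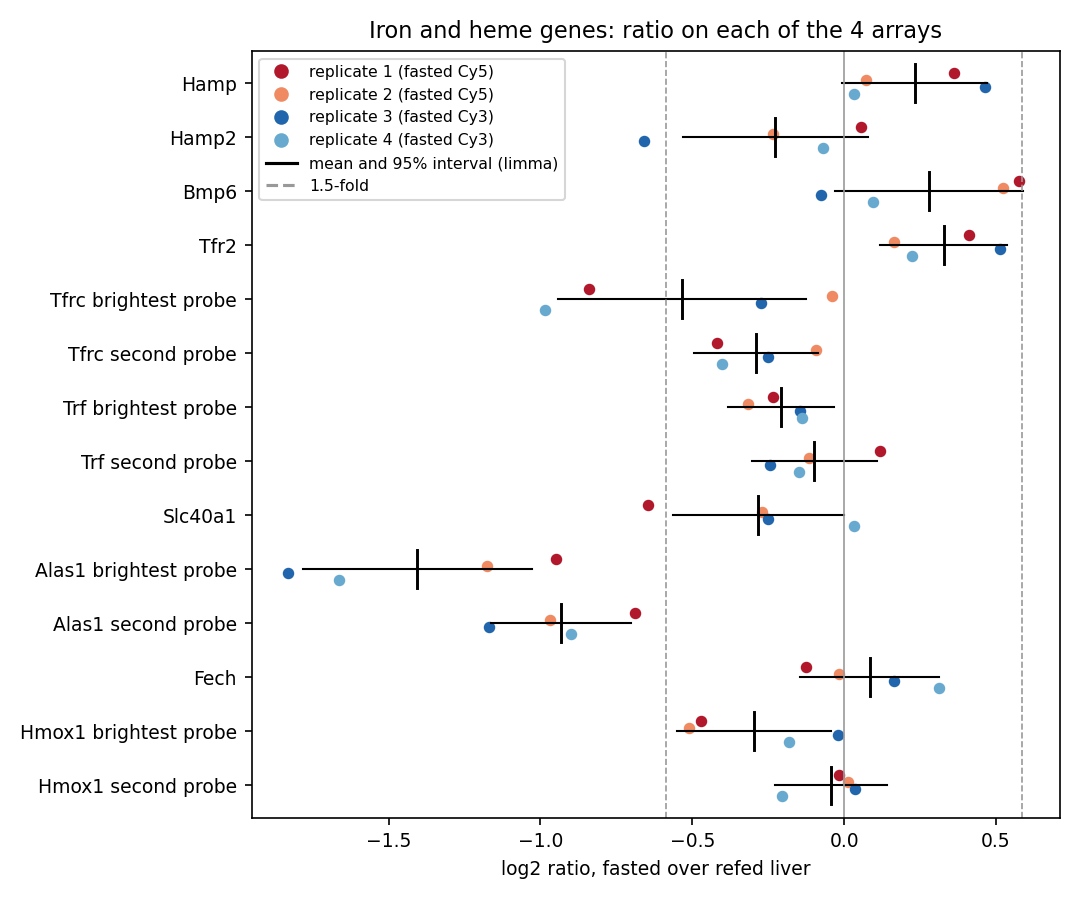
Log2 ratio of fasted over refed liver (horizontal axis) for the 14 kept probes of the 10 genes. Points are arrays coloured by replicate, vertical ticks are means, horizontal lines are 95% intervals from limma and dashed lines mark 1.5-fold; both Alas1 probes lie beyond the lower line on every array.

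The test was repeated with a dye term in the model, since 2 of the 10 genes, Alas1 and Bmp6, had a dye effect at an adjusted p under 0.10, as did 14.8% of all kept probes. Without the dye term 2 of the 10 (Alas1 and Tfr2) had an adjusted p under 0.10 for fasted over refed at any fold, against 10.8% of probes. With it 7 of the 10 did, against 26.1% of probes. The added genes were Bmp6, Tfrc, Trf, Slc40a1 and Hmox1, with adjusted p of 0.03, 0.0778, 0.056, 0.0797 and 0.0243 in limma. All of these changed by less than 1.5-fold, so the calls were the same.

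The genes with ratios nearest to Alas1 over the 4 arrays were Cacybp, which encodes a binding partner of the ubiquitin ligase SIAH1, then Gm6788, a predicted gene, and Piga, an enzyme gene of GPI anchor synthesis. Their root mean square distances were 0.135, 0.157 and 0.164 on the log2 scale, and their mean log2 ratios were -1.29, -1.53 and -1.36. Nearness here describes 4 values per gene and nothing more.

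The other genes of iron and heme biology were read from 5 lists that together named 96 genes, 90 of which had a kept probe. Of the 90, 5 were called higher and 4 lower by their brightest probe, against 1.70% and 2.07% of all kept probes, and 19 had an adjusted p under 0.10 at any fold, against 10.8% of all kept probes. A dye effect was found in 26 of the 90, against 14.8%. Their median log2 ratio was -0.0013 and their median absolute log2 ratio 0.18.

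Among 14 heme synthesis genes other than Alas1 and Fech, all measured, 1 was called higher and 1 lower. Clpx, the unfoldase of the mitochondrial ClpXP protease, which is known both to activate ALAS enzymes and to help degrade ALAS1, rose in fasted livers. Its log2 ratios of 1.53, 1.16, 1.16 and 1.24 averaged 1.27 ± 0.18 (SD, n = 4; limma adjusted p of 0.00337), opposite to Alas1 on every array. Slc25a38, the mitochondrial carrier that brings in glycine for the same first step, fell with a mean of -0.60 ± 0.23 (adjusted p of 0.0285), and its call was lost without replicates 3 or 4 and with scaling between arrays.

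No enzyme downstream of Alas1 was called. Alad, the second enzyme, was at -0.74, -0.51, -0.36 and -0.28 (mean -0.47 ± 0.20, adjusted p of 0.0441), below 1.5-fold. Urod and Cpox, later enzymes, averaged -0.01 and -0.04, and Tmem14c, which helps carry porphyrin precursors, averaged -0.06, with adjusted p from 0.773 to 0.976. Urod split by dye orientation, at -0.28, -0.27, 0.31 and 0.19 (dye term adjusted p of 0.0577). Uros, named here after its values were seen, showed the pattern of a dye effect, at 0.47, 0.42, -0.68 and -0.82, with a dye term adjusted p of 0.00958.

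Of 9 regulators of Alas1 transcription, 2 were called higher and none lower. Ppargc1a, a coactivator known to induce Alas1 on fasting, had log2 ratios of 0.97, 1.33, 1.25 and 1.25 (mean 1.20 ± 0.16, limma adjusted p of 0.00338), opposite in sign to Alas1 on all 4 arrays. A dimmer Ppargc1a probe averaged 0.45 with an adjusted p of 0.0417. Nr1i2, the drug-sensing receptor PXR, averaged 0.75 ± 0.41 (adjusted p of 0.0478), a call lost without replicates 2, 3 or 4. Its ratios were 0.30 and 0.49 where the fasted liver was Cy5 and 1.13 and 1.07 where it was Cy3, with a dye term adjusted p of 0.0438. Foxo1, a factor restrained by insulin, averaged 0.62 ± 0.51, and Ppara, Nr1i3 and Hnf4a averaged 0.51, 0.31 and -0.01, with adjusted p from 0.115 to 0.976. Nr1i3 split by dye orientation, at -0.15, -0.12, 0.83 and 0.67 (dye term adjusted p of 0.0275). The dimmer kept probes were not called either, at 0.54 and 0.60 for Ppara (adjusted p of 0.0809 and 0.118), 0.31 for Nr1i3 (0.0707) and 0.65 for Foxo1 (0.117).

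Of 17 genes of heme breakdown, scavenging and transport, 15 were kept, and 1 was called higher and none lower. Flvcr2, a member of the FLVCR transporter family, averaged 0.95 ± 0.49 (SD, n = 4; limma adjusted p of 0.0382), with 1.62 on replicate 3 the highest, and was no longer called without replicate 2. The abundant plasma scavengers Hp, which binds hemoglobin, and Hpx, which binds heme, averaged 0.34 ± 0.31 and 0.15 ± 0.50. Both had a dye effect, with adjusted p of 0.0613 and 0.0507, as had Hebp1 at 0.0987, while Pgrmc1, a heme-binding membrane protein, averaged 0.0044.

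**Figure D4:**
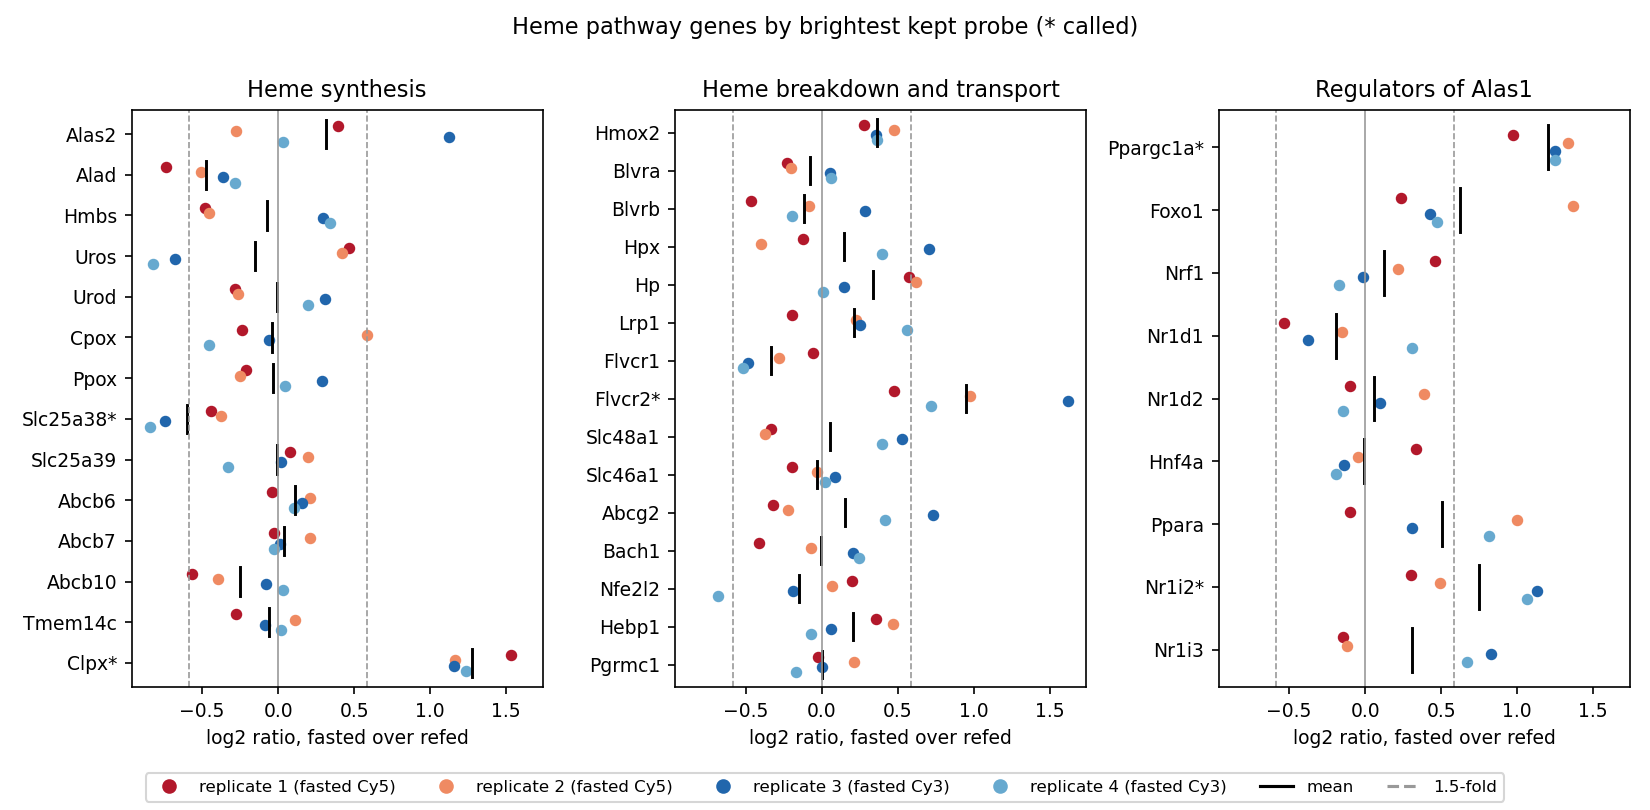
Log2 ratio of fasted over refed liver (horizontal axes) for kept genes of heme synthesis, heme breakdown and transport, and Alas1 regulation. Points are arrays coloured by replicate, ticks are means, dashed lines mark 1.5-fold and asterisks mark called genes; Clpx and Ppargc1a lie beyond 1.5-fold on all 4 arrays.

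Of 31 genes that control hepcidin, 30 were kept, and 1 was called higher and 1 lower. Il6ra, the receptor subunit for interleukin 6, averaged 0.83 ± 0.51 (limma adjusted p of 0.0573), with 1.59 on replicate 2 and 0.52 to 0.63 on the others. Id3, a target of BMP signals, fell with a mean of -1.06 ± 0.66 (adjusted p of 0.0559), at -1.5 and -1.75 where the fasted liver was Cy5 and -0.61 and -0.40 where it was Cy3. Its dye term had an adjusted p of 0.0253. The call of Il6ra was lost without replicates 2, 3 or 4 and with median centring, and that of Id3 without replicates 1, 2 or 3.

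Id2, a further BMP target, split by dye orientation. It was at -1.03 and -1.33 on replicates 1 and 2 and at 0.30 and 0.09 on replicates 3 and 4 (adjusted p of 0.393, dye term 0.0157). Id1 was at -0.42, -0.89, 0.08 and 0.77, and Smad7, which dampens BMP signals, at -0.42, -0.52, -0.27 and -0.13 (adjusted p of 0.861 and 0.0849). Atoh8, from the same list, was above 0 on every array, at 0.12, 0.11, 0.69 and 0.95 (limma adjusted p of 0.155, dye term 0.0479). Id1, Smad7 and Atoh8 were named after their values were seen. Tmprss6, the protease that restrains hepcidin, averaged -0.04, and Creb3l3 and Cebpa, factors that activate hepcidin, averaged 0.36 and -0.47, with adjusted p of 0.884, 0.223 and 0.0788. A dye effect was present for all 3.

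Of 25 iron carriers, transporters, storage and oxidation genes, 22 were kept, none was called higher and 2 were called lower. Steap4, a metalloreductase, averaged -0.68 ± 0.24 (limma adjusted p of 0.0224), lowest in replicate 3 (-1.02) with the rest from -0.64 to -0.46, and the call was lost without replicate 3. Slc25a37, mitoferrin 1, which takes iron into mitochondria, averaged -0.69 ± 0.36 (adjusted p of 0.0448), with the call lost without replicates 2 or 4. A second Slc25a37 probe averaged -0.23 and was not called. A dimmer probe of Pcbp2, an iron chaperone, was called higher at 0.65 (adjusted p of 0.0242), while its brightest probe, which entered the count, was at 0.12 (adjusted p of 0.613). The ferritin genes, which encode the iron store, were at -0.02 for Fth1, -0.07 for Ftl1 and -0.20 for Ftl2, with adjusted p of 0.971, 0.774 and 0.268, and ceruloplasmin, Cp, a plasma ferroxidase, was at 0.13. Fth1 and Cp had a dye effect, with adjusted p of 0.0649 and 0.0458, and Fth1 was at 0.21 and 0.41 where the fasted liver was Cy5 and -0.18 and -0.50 where it was Cy3.

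**Figure D5:**
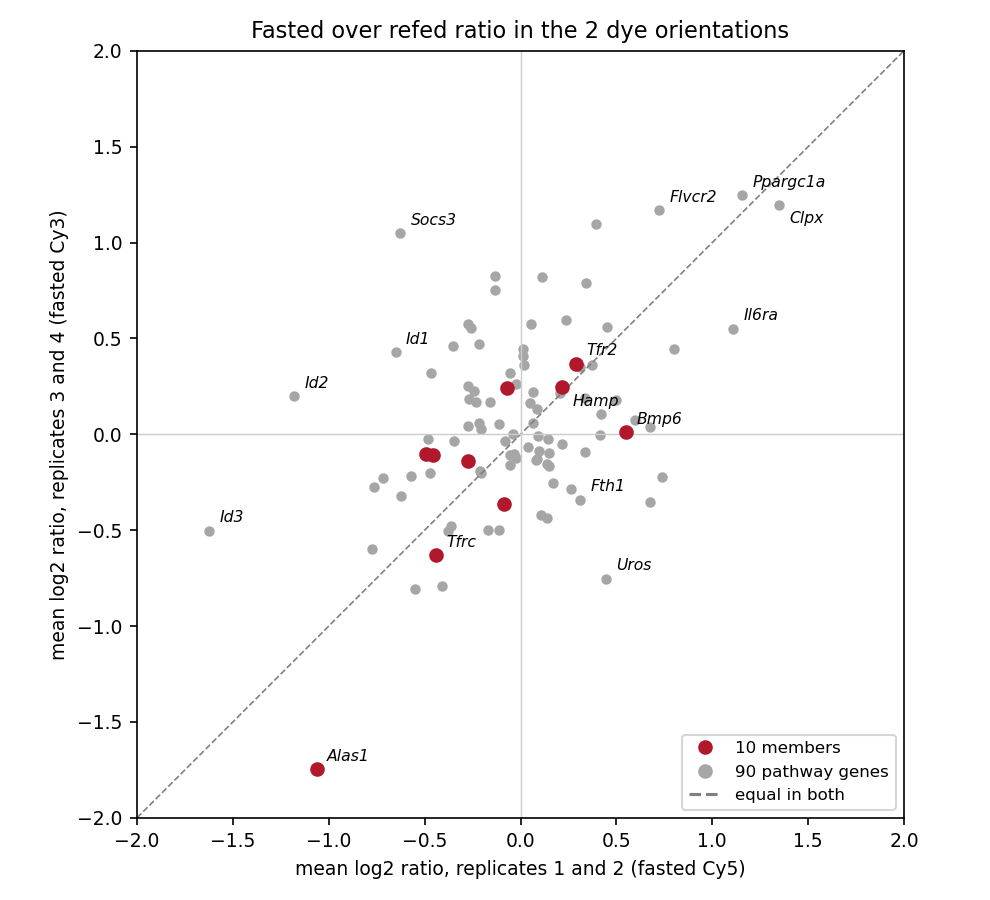
Mean log2 ratio of fasted over refed liver on replicates 1 and 2 (horizontal, fasted liver Cy5) against replicates 3 and 4 (vertical, fasted liver Cy3) for the 10 genes in red and 90 list genes in grey; the dashed line marks equal ratios. Alas1, at -1.06 and -1.75, is low in both orientations but off the line, and Bmp6, Id2 and Uros lie off it as well.

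Livers on an array came from different mice, and no label ties a number to a litter or day. The number of arrays limits the precision. The 95% intervals of the 14 kept probes excluded 0 for both Alas1 probes, Tfr2, both Tfrc probes, the brightest Trf and Hmox1 probes and Slc40a1, before any adjustment for the number of probes tested, which is the same as an unadjusted p under 0.05 and held for 21.6% of all kept probes.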

How the data were processed

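Raw intensity per spot (medians, means and local background of each channel) came from the deposited scanner files, made by the authors with Agilent's Feature Extraction (10.10.1.1 in the file headers) from 200 ng of RNA per liver. The authors also deposited log2 ratios normalized within arrays in limma; their background step is not stated, and they entered only as an alternative, correlating at 0.975 to 0.992 with the ratios computed here.

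Median signals were read in R 4.3.3. Spots whose local background exceeded 3 times the array's median were left out (55 of 177588). Background was removed by normexp (offset 50), and control spots and outlier-flagged spots (197 to 322 per array) were left out before global loess. No spot was saturated. Spots of a probe were averaged. Of 39429 probes, 19719 were well above background on all 4 arrays in at least 1 condition and had 4 values. Levels are single-channel intensities after Aquantile scaling, so probes were not compared with each other. Probes were named through RefSeq accessions (26055 probes) or symbols.

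The 4 ratios were tested in limma 3.58.1 (lmFit, eBayes, two-sided, Benjamini-Hochberg over all kept probes, no dye term), with calls at an adjusted p under 0.10 and 1.5-fold. SAM was rebuilt with 16 sign flips as an alternative. On simulated ratios for fasted over refed (19719 probes), 90% of 200 probes changed by 1.5 on the log2 scale were called. These ratios had normal noise and no planted dye effect. Smaller changes, such as those of the uncalled genes, were not simulated, so the 90% does not cover them. A list gene entered by its brightest kept probe. All of the 10 genes were named, with every called list gene, up to 4 uncalled ones per list of largest mean intensity, and the 3 genes nearest to a called member. The members and lists were chosen with earlier results of these data known. All arrays were on 1 slide, so slide was no batch. Livers are separate animals per the labels; upstream stretches are from RefSeq.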

Additional observations from a re-analysis of the deposited data

Results flagged for a closer look

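Of 34 sets of 4 ratios examined (the kept probes of the 10 genes, the list means and the called list genes), 3 held 1 array far from the others, where chance gives about 1 in 20. The list mean of the liver endothelial markers, all 9 kept, was 0.20, 0.19, 0.03 and 0.22 on replicates 1 to 4, and the gap of replicate 3 was 0.872 of the range. Lyve1 was at -1.26 on that array. The pancreatic acinar list, 4 of 16 kept, was at -4.30 on replicate 3 and between -0.07 and 0.02 elsewhere, a gap of 0.980 of the range. Il6ra was at 1.59 on replicate 2 and between 0.52 and 0.63 elsewhere, a gap of 0.893 of the range. No kept probe of the 10 genes stood apart in this way.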

How the results depend on the processing

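Alas1 was called by both probes under 20 of 21 processing alternatives, with log2 ratios from -1.56 to -1.26 and from -1.06 to -0.85. The exception was normexp fitted to all spots, with log2 ratios of -1.36 and -0.57, adjusted p of 0.141 and 0.559, 0 members called lower and 0 list genes called in either direction, with 5 probes higher and 16 lower over the whole array in place of 335 and 409. No other gene of the 10 was called in any of these 21. With no fold limit 1 member was called higher (Tfr2), and 9 list genes were called higher and 10 lower; with a 2-fold limit these were 2 and 1. Over the whole array, plain subtraction gave 551 higher and 712 lower, Agilent's processed signals 685 and 904, and leaving out replicate 3 gave 208 and 256. Median centring gave 7 list genes called lower, and -0.36 for Hamp2, -0.37 for the brightest Trf probe and -0.43 for Slc40a1, none called. The brightest Trf probe was -0.084 with normexp fitted to all spots and -0.29 with Agilent's processed signals (limma adjusted p of 0.832 and 0.0987), not called in either. The second Trf probe was -0.26 with median centring and -0.22 with Agilent's processed signals. It was -0.17 without replicate 1 and -0.05 without replicate 3, and Fech was 0.15 without replicate 1 and 0.0076 without replicate 4. Leaving out 1 array gave 2 to 7 list genes called higher and 1 to 3 lower, and replicates 2 and 4 only, chosen after seeing the data, gave 1 lower. Members with a dye effect were 1 with plain subtraction and between 0 (without replicates 1, 3 or 4) and 1 (without replicate 2). Signs turned for the second Trf probe (0.026, normexp on all spots), Fech (-0.064, median centring) and the second Hmox1 probe (0.0111 without replicate 4, in a range from -0.0695 to 0.0111). In each case the cause was not tested. Clpx and Ppargc1a were called in 23 of 24 alternatives. The tested ratios already pair the livers of an array, and a model of separate channels kept the calls of the 10 genes. One Tfrc probe was not well above background and gave no test.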
